A study of Neurospora crassa with 3 samples.

Results

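In Neurospora crassa, 154 of 9730 genes (1.58%) had sense reads well above all other libraries of the study in both H3G34R libraries. The level of a gene is its CPM, the sense count divided by all sense counts in genes of that library and scaled to 1e6. A gene was a member if the lower of its 2 H3G34R values plus 1 was at least 4 times the highest of its 4 other values plus 1, and if that lower value was at least 10 CPM. The rule was met by 157 genes, and 3 of these were left out by name: NCU09434 (sms-2), NCU09564 (pho-4) and NCU08325 (pho-5). These H3G34R values and the 4 other values chose the members, so the members were selected on the difference between H3G34R and the other genotypes, which is given as a description and carries no test.

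The study asked how a glycine-to-arginine change at residue 34 of histone H3 affects gene expression, next to loss of the catalytic function of ASH1. Poly-A RNA came from mycelium of this filamentous fungus after 18 h of growth at 32 °C in shaken liquid medium. H3G34R strains N5247 and N5248 carry the histone change with no set-2 label, and each gave 1 library. N6777 carries the same histone change and a set-2 label. It gave both libraries of the genotype called set-2 H3G34R here. Strains N6266 and N6267, 1 library each, carry ash1(Y888F) and the same set-2 label, and are called set-2 ash1(Y888F). All 4 libraries outside H3G34R therefore share the set-2 label. The wild-type libraries that the authors compared with belong to other deposits and were not analysed here.

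Methylation of lysine 36 on histone H3 is laid down in Neurospora by SET-2, which travels with elongating RNA polymerase II, and by ASH1, which marks genes that are poorly transcribed. Many ASH1-marked genes also carry methylated lysine 27 on H3, a mark of silent facultative heterochromatin that lies mostly towards chromosome ends in this fungus. Glycine 34 sits beside lysine 36 in the H3 tail. Several pathways named by members belong to the sexual phase of the life cycle, in which pheromones attract a partner, a pigmented fruiting body forms, repeats are mutated and unpaired DNA is silenced during meiosis.

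Between 7.52 and 9.83 M sense reads per library fell in genes, with M for 1e6, so a count of 3 corresponded to 0.305 to 0.399 CPM. Reads of the gene NCU00269 (set-2) were present in every library. Its level was 34.2 and 25.6 CPM in H3G34R, 31.8 and 31.2 CPM in the libraries labelled set-2 H3G34R, and 20.3 and 16.4 CPM in those labelled set-2 ash1(Y888F). These counts do not show an absence of set-2 reads under the set-2 label, and the genotypes are named by their labels throughout. The mating-type genes matA-1, matA-2 and matA-3 had reads in all 6 libraries, at differing levels. For matA-1 these were 25.4 and 23.5 CPM in H3G34R, 44.8 and 46.5 CPM in set-2 H3G34R, and 8.31 and 18.6 CPM in set-2 ash1(Y888F). In the same order, matA-2 had 8.39 and 9.15, 4.57 and 3.13, and 0.593 and 0.931 CPM. For matA-3 they were 23.3 and 23.4, 6.69 and 8.93, and 2.14 and 2.66 CPM. All p-values rest on the spread between single libraries of a genotype, and for strain N6777 that spread may be technical. The standard error (SE) printed after ± includes the estimated spread between libraries, whereas floors cover counting error only.

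The members together held 12136 and 12138 CPM in the H3G34R libraries. Their sum was 674 and 653 CPM in the libraries labelled set-2 H3G34R and 645 and 681 CPM in those labelled set-2 ash1(Y888F). The other 2 genotypes were thus close to each other in the summed level, with overlapping libraries. The median member had 34.7 CPM in its lower H3G34R library and 2.23 CPM in its highest other library, and the median ratio of the rule was 8.97. A total of 63 members had a ratio of at least 10, 24 of at least 20, 7 of at least 50 and 3 of at least 100. In 40 members no library outside H3G34R reached 1 CPM. The highest of the 4 other values fell in a library labelled set-2 H3G34R for 77 members and in one labelled set-2 ash1(Y888F) for 75, and 2 members had no reads in any of the 4.

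**Figure D1:**
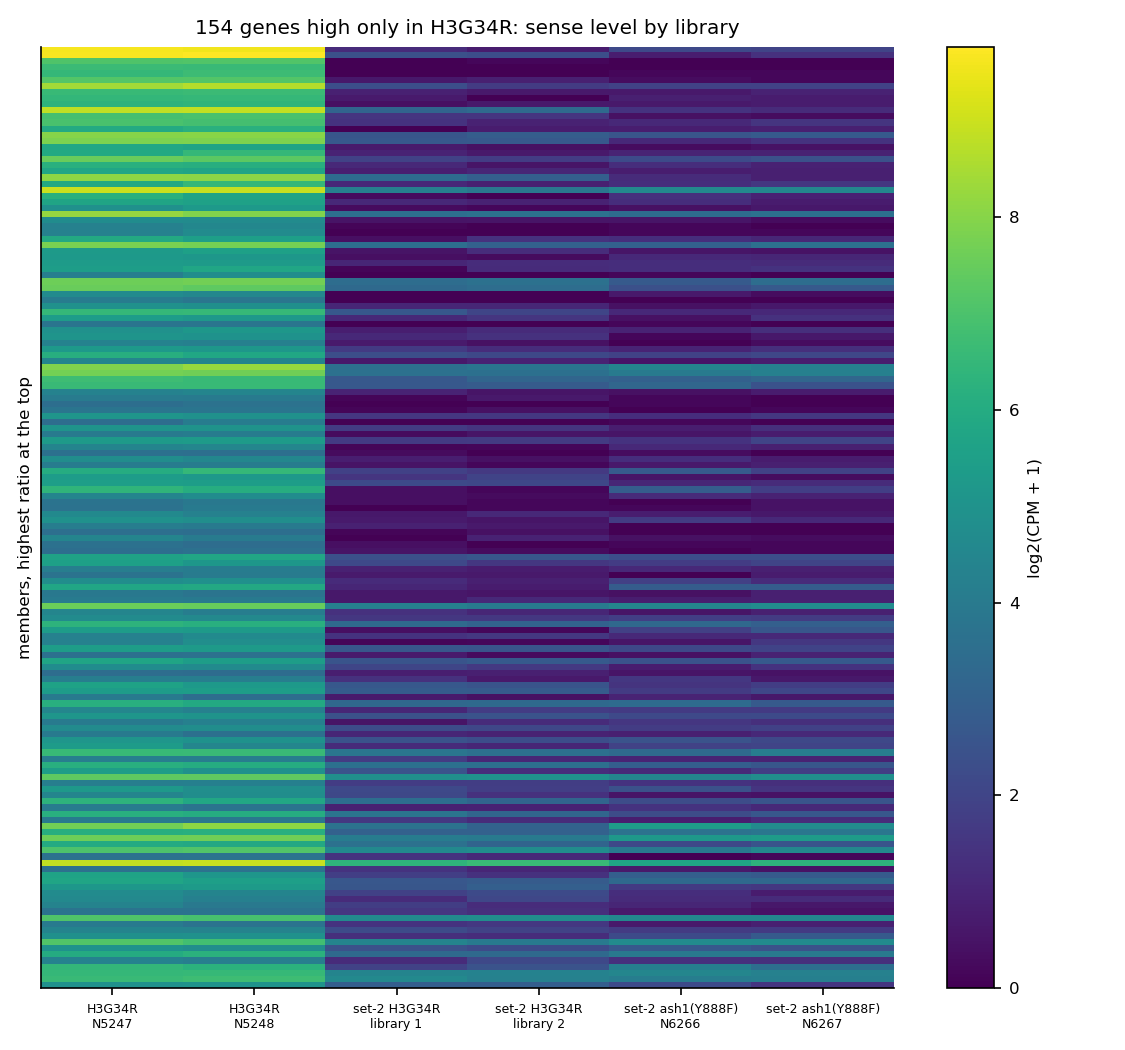
Sense level, as log2(CPM + 1), of the 154 members (rows, highest ratio at the top) in the 6 libraries (columns). In every row both H3G34R columns are brighter than the 4 other columns. The members' sums are 12136 and 12138 CPM in H3G34R and 645 to 681 CPM in the others.

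The rule acts on the lower of the 2 H3G34R values and so removes genes that are low in 1 strain, and the spread between the strains is given as a description. The median absolute log2 difference between N5248 and N5247 was 0.12 over the members, and also 0.12 over the 6477 genes with at least 10 CPM in both strains. Members differed by more than 1.5 times between the strains in 3 cases (1.95%), against 2.22% of those genes. The widest was NCU04169, with 39.5 CPM in N5247 and 21.2 CPM in N5248. Members were higher in N5247 in 90 cases and in N5248 in 64.

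Values on both sides of the threshold were close. The members just inside it were NCU09484, NCU03562, NCU00142, NCU00153 (ndi-1) and NCU06475, with ratios of 4.04 to 4.10. The genes just outside were NCU06005, NCU05550, NCU05503, NCU06263 and NCU07861, with ratios of 3.94 to 3.97. In all, 29 members had a ratio under 5.

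A gene symbol was available for 15 of the 154 members, and for 1118 of all 9730 genes. They are described by their known roles, a grouping made with the members known and given with no test. NCU02500 (ccg-4), which encodes the pheromone precursor of mat A strains, had 97.0 and 94.6 CPM in H3G34R, 5.42 and 5.92 CPM in the libraries labelled set-2 H3G34R, and 8.31 and 4.52 CPM in those labelled set-2 ash1(Y888F). NCU03584 (per-1), a polyketide synthase needed for the dark pigment of the fruiting body, had 61.1 and 58.0 CPM in H3G34R, 11.4 and 7.89 CPM with the label set-2 H3G34R, and 3.32 and 4.79 CPM with the label set-2 ash1(Y888F). For both genes the H3G34R libraries stood clear of all others. The symbol rid-1 (NCU02034) stands for a DNA methyltransferase homologue required for repeat-induced point mutation, the mutation of duplicated DNA before meiosis. It had 34.4 and 31.0 CPM in H3G34R, against 4.35 and 4.64 CPM in the libraries labelled set-2 H3G34R and 3.44 and 3.59 CPM in those labelled set-2 ash1(Y888F).

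Both sad genes among the members act in meiotic silencing by unpaired DNA, an RNA interference pathway of the sexual phase. NCU04294 (sad-2), which anchors the pathway's RNA polymerase at the nuclear rim, had 29.5 and 28.2 CPM in H3G34R and 0.356 to 1.06 CPM in the 4 other libraries. NCU09211 (sad-3), a putative helicase of the pathway, had 19.0 and 20.9 CPM in H3G34R and 0.356 to 0.956 CPM elsewhere. The values outside H3G34R came from 3 to 10 reads per library in each gene. The Argonaute gene NCU09434 (sms-2) of the same pathway, which met the thresholds and was left out by name, had 561 and 591 CPM in H3G34R, 15.2 and 17.0 CPM with the label set-2 H3G34R, and 4.63 and 3.86 CPM with the label set-2 ash1(Y888F).

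The kinase genes among the members with a symbol were 5 stk genes and rsk. Members were 5 of 53 stk genes (9.43%) and 15 of 1118 genes with a symbol (1.34%), where 1.58% of all genes were members; no test was made of these shares. NCU05655 (stk-35) had 134 and 136 CPM in H3G34R and 1 read in all in the 4 other libraries. NCU05658 (stk-36) had 250.3 and 263 CPM in H3G34R and 4.98 to 6.38 CPM in the others. NCU10004 (stk-56) had 94.3 and 100.4 CPM in H3G34R, where the others had 0.580 to 0.931 CPM. These 3 kinase genes thus ranged from a single read to a low but measurable level outside H3G34R. NCU09064 (stk-53) had 182 and 161 CPM in H3G34R, 9.03 and 10.1 CPM in the libraries labelled set-2 H3G34R and 4.27 and 5.59 CPM in those labelled set-2 ash1(Y888F). NCU09189 (stk-54) had 39.0 and 45.5 CPM in H3G34R and at most 1.39 CPM in the others. The symbol rsk belongs to NCU09151, named after the ribosomal S6 kinases, which had 48.8 and 53.3 CPM in H3G34R and 4.03 to 5.10 CPM elsewhere.

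The remaining 4 members with a symbol encode enzymes. NCU08852 (parp), the poly(ADP-ribose) polymerase, had 297 and 242 CPM in H3G34R and 9.73 to 11.6 CPM in the 4 other libraries. NCU00153 (ndi-1), an alternative NADH dehydrogenase of mitochondria, had 86.6 and 75.0 CPM in H3G34R, 2.76 and 4.64 CPM with the label set-2 H3G34R, and 17.6 and 10.5 CPM with the label set-2 ash1(Y888F). Outside H3G34R, parp varied little, whereas the 2 genotypes did not overlap for ndi-1. NCU01376 (pho-2), the repressible alkaline phosphatase, had 33.9 and 30.7 CPM in H3G34R and 3.32 to 4.67 CPM in the others. NCU04500 (gh18-1), of the glycoside hydrolase family that holds chitinases, had 19.0 and 18.1 CPM in H3G34R and 0 to 0.637 CPM in the others.

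**Figure D2:**
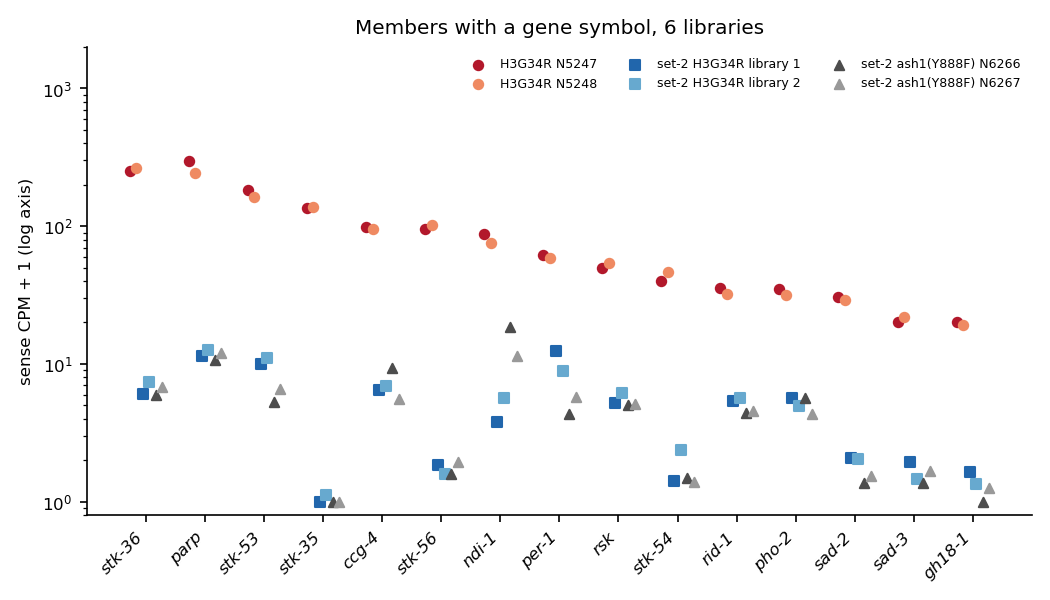
Sense CPM plus 1 (log axis) of the 15 members with a gene symbol in the 6 libraries; each point is 1 library, circles for H3G34R, squares for set-2 H3G34R and triangles for set-2 ash1(Y888F). The circles lie above all squares and triangles for each gene, and squares and triangles stand furthest apart for ndi-1, per-1 and stk-53.

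The other 139 members carry only an NCU number in the reference table, and no role is given for them. NCU06590 had the highest ratio, 169, with 795 and 749.8 CPM in H3G34R, 1.27 and 0.696 CPM in the libraries labelled set-2 H3G34R, and 3.44 and 3.06 CPM in those labelled set-2 ash1(Y888F). NCU00425 followed at 151, with 805 and 868 CPM in H3G34R, 4.35 and 3.94 CPM in set-2 H3G34R, and 0.712 and 1.60 CPM in set-2 ash1(Y888F). NCU06590 was higher with the ash1 label than with the other set-2 label, and NCU00425 the other way round.

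In 2 members no library outside H3G34R had a single read. NCU04706 had 99.5 and 97.2 CPM in H3G34R from 937 and 956 reads, which is at least 244-fold higher than the others when 3 counts per library are taken as the floor. Its neighbour NCU04707 had 16.1 and 13.2 CPM, at least 33.1-fold higher on the same floor. Near-absence outside H3G34R was also seen for NCU06888, at 90.3 and 102 CPM in H3G34R and 0 to 0.133 CPM in the others. NCU08796 was at 143 and 139.6 CPM in H3G34R and 0.133 to 0.812 CPM in the others. NCU02964 had 78.4 and 81.8 CPM in H3G34R and 0.319 to 0.665 CPM elsewhere. These genes were read from 1 to 7 times in a library outside H3G34R wherever they were read at all.

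Other members with high levels in H3G34R differed in the level they kept outside it. NCU07082 had 463 and 488 CPM in H3G34R, 80.8 and 97.8 CPM in the libraries labelled set-2 H3G34R, and 51.1 and 78.3 CPM in those labelled set-2 ash1(Y888F). NCU06938 had 336 and 413 CPM in H3G34R and 2.20 to 4.14 CPM in the others. NCU05616 had 240.4 and 307 CPM in H3G34R, 11.3 and 12.9 CPM in set-2 H3G34R, and 21.2 and 17.7 CPM in set-2 ash1(Y888F). Both H3G34R values exceeded the others in each, and NCU07082 held the highest level of any member outside H3G34R.

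Members lay next to each other on the chromosomes, a property that the rule did not use. By NCU number, 28 members (18.2%) sat in 13 runs of consecutive numbers, of which 2 held 3 members and the rest 2. By gene order in assembly NC12, used only for names and order, 31 members (20.1%) lay in 12 runs and the longest held 6. For sets found with the same thresholds, the share in runs by gene order was 16.7% of the 24 genes high only in set-2 ash1(Y888F), 16.2% of the 37 high only in set-2 H3G34R and 16.5% of the 85 low only in H3G34R. By NCU number these shares were 8.33%, 16.2% and 9.41%. These sets differ in size, and a larger set holds more neighbours, so no order is read from the shares. With 1 intervening gene allowed, 45 members (29.2%) fell in 16 runs by gene order.

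The longest neighbourhood holds 7 members in gene order, interrupted by 1 other gene: NCU05463, NCU05467, NCU05469, NCU05470, NCU05472, NCU16538 and NCU16539. NCU05467 had 455 and 462 CPM in H3G34R, 7.75 and 9.51 CPM in the libraries labelled set-2 H3G34R, and 1.66 and 1.33 CPM in those labelled set-2 ash1(Y888F). NCU05469 had 276 and 269.9 CPM in H3G34R, 9.77 and 6.84 CPM in set-2 H3G34R, and 1.31 and 0.798 CPM in set-2 ash1(Y888F). NCU05472 had 225 and 234 CPM in H3G34R, 5.52 and 5.68 CPM in set-2 H3G34R, and 1.19 and 1.73 CPM in set-2 ash1(Y888F). In these 3 genes the 3 genotypes were ordered alike, with set-2 H3G34R between H3G34R and set-2 ash1(Y888F). NCU05470 showed the same order, at 116 and 122 CPM, 1.81 and 1.86 CPM, and 0.356 and 0.266 CPM. NCU05463 at the edge had 123 and 114 CPM in H3G34R and 0.928 to 1.86 CPM in the others, with the set-2 genotypes overlapping. On the other side, NCU16538 had 162 and 166 CPM in H3G34R, 27.8 and 29.5 CPM in set-2 H3G34R and 20.4 and 27.7 CPM in set-2 ash1(Y888F). NCU16539 had 17.3 and 16.3 CPM in H3G34R and 0.696 to 1.19 CPM elsewhere. The flanking genes NCU05462 and NCU16540 stayed under 4.0 CPM in all 6 libraries.

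Both runs of 3 consecutive numbers mixed high and modest members. In NCU09603 to NCU09605, the middle gene NCU09604 had 502 and 484 CPM in H3G34R, 18.2 and 13.6 CPM in set-2 H3G34R and 23.1 and 22.5 CPM in set-2 ash1(Y888F). NCU09603 had 30.5 and 26.4 CPM in H3G34R and 3.60 to 5.46 CPM in the others, and NCU09605 had 48.1 and 37.4 CPM in H3G34R and 1.78 to 5.52 CPM in the others. The gene next to this run, NCU09602 (hsp70-1), was at 4847 and 4833 CPM in H3G34R, 3343 and 3191 CPM in set-2 H3G34R, and 4188 and 4128 CPM in set-2 ash1(Y888F). In NCU08851 to NCU08853, parp lies in the middle. NCU08853 had 40.7 and 39.5 CPM in H3G34R, 0.319 and 0.116 CPM in set-2 H3G34R, and 2.61 and 5.05 CPM in set-2 ash1(Y888F). NCU08851 had 36.4 and 27.4 CPM in H3G34R and 1.86 to 4.39 CPM in the others. NCU16913, the next gene in order, is also a member, with at least 34.8 CPM in both H3G34R libraries and 0.232 to 1.19 CPM elsewhere.

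Runs by gene order with 1 intervening gene allowed were interrupted by 10 non-members, whose ratios ran from 1.00 to 5.496 with a median of 2.12. In 9 of them both H3G34R libraries were above all others, and in 5 the ratio was at least 2. NCU05175, between NCU05176 and NCU05173, had 7.22 and 6.41 CPM in H3G34R and at most 0.348 CPM in the others. NCU07151, between NCU07152 and NCU07150, had 2.12 and 3.87 CPM in H3G34R and at most 0.232 CPM in the others. NCU06887, between NCU06886 and NCU06888, had 2.55 and 2.85 CPM in H3G34R and at most 0.119 CPM in the others. All 3 were higher in both H3G34R libraries than in any other and missed the rule on level or on ratio. Of the 259 non-members next to a member, 55 (21.2%) had a lower H3G34R value plus 1 of at least 2 times the highest other value plus 1, against 445 of 9313 other non-members (4.78%). Neighbouring genes are not independent, and no test was made of this difference.

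**Figure D3:**
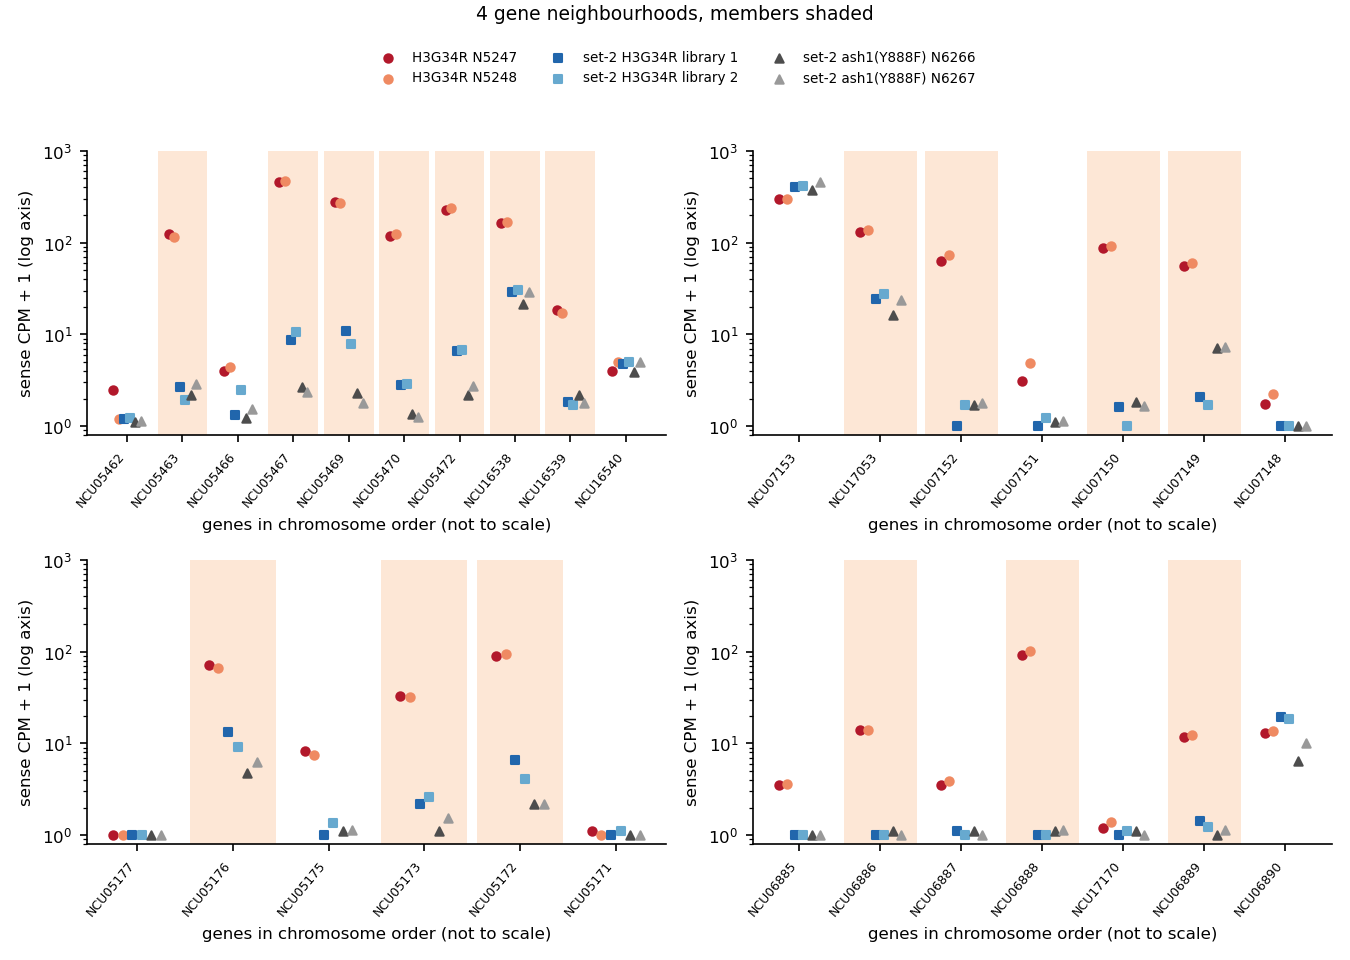
Sense CPM plus 1 (log axis) of genes in chromosome order, not to scale, in 4 neighbourhoods, with members shaded; each point is 1 library. In the neighbourhood of NCU05463 to NCU16539 the H3G34R circles stand above the rest in all shaded genes, and the squares of set-2 H3G34R stand above the triangles of set-2 ash1(Y888F) in NCU05467, NCU05469, NCU05470 and NCU05472.

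Some members lay at chromosome ends. Among the outermost 25 genes of a chromosome end in gene order were 13 of the 154 members (8.44%), against 350 of all 9729 placed genes (3.60%). The shares were 18.9% of the 37 genes high only in set-2 H3G34R, 4.17% of the 24 high only in set-2 ash1(Y888F) and 3.53% of the 85 low only in H3G34R. The 13 members came from few places: NCU07149, NCU07150, NCU07152 and NCU17053 lie 7 to 11 genes from one end, NCU05172, NCU05173 and NCU05176 lie 22 to 25 genes from another, and NCU09603 to NCU09605 lie 23 to 25 genes from yet another. Members of one run are a single place rather than independent cases. NCU10031 and NCU16906 lie 1 and 2 genes from an end. NCU07150 had 86.9 and 90.5 CPM in H3G34R and 0 to 0.831 CPM in the others, and NCU07152 had 61.5 and 71.8 CPM in H3G34R and 0 to 0.798 CPM in the others.

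The difference between the other 2 genotypes was not part of the rule, although the rule bounds both from above, and it was tested with edgeR's quasi-likelihood test over 8561 genes. At a Benjamini-Hochberg adjusted p of 0.05, 23 of the 154 members (14.9%) were higher and 26 (16.9%) were lower in set-2 H3G34R than in set-2 ash1(Y888F). Over all genes tested, 18.2% were higher and 19.9% lower, near the members' shares. The filter on low counts took all 6 libraries, so members could enter the test through their H3G34R counts alone. NCU04706 and NCU04707 had no reads in the 4 libraries compared and could not pass. The members' shares are therefore given as a description. The median log2 difference was -0.13 over the members and 0.02 over all genes. The test left 105 members not past the threshold, and 54 members had an unadjusted p under 0.05. Without the first library of set-2 H3G34R 8 members were higher, without its second 13, and without strain N6266 14; the lower members numbered 16 without the second library of set-2 H3G34R. Each of these fits leaves 1 library in a genotype, which is assumed to vary like the others. Of the 49 members called, 20 kept the call under every alternative in which they were tested and 29 lost it under at least 1. In a fit of the 4 libraries labelled set-2, filtered on those alone, 29 kept the call, 11 lost it and the rest were not tested.

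Among the members higher in set-2 H3G34R, the 4 with the smallest adjusted p were neighbours. On TMM-scaled CPM, NCU05467 had 7.37 and 9.20 in set-2 H3G34R and 1.90 and 1.49 in set-2 ash1(Y888F), a log2 difference of 2.27 ± 0.21 (SE, n = 2 libraries each, edgeR adjusted p = 0.00101). NCU05469 differed by 2.72 ± 0.29 (adjusted p = 0.00147), NCU05472 by 1.71 ± 0.21 (adjusted p = 0.00224) and NCU05470 by 2.26 ± 0.34 (adjusted p = 0.00402), all by edgeR. Their neighbours in the same run did not pass: NCU05463 differed by -0.42 ± 0.37, NCU16538 by 0.02 ± 0.15 and NCU16539 by -0.60 ± 0.41. The 4 that passed lie side by side among the 7 members of the run; whether they differ from the other 3 was not tested. NCU00425 was next at 1.63 ± 0.31 (edgeR adjusted p = 0.00857), which became 0.0556 without the first library of set-2 H3G34R. NCU05172, NCU05173 and NCU05176, also neighbours, were higher by 1.62 ± 0.35, 1.87 ± 0.57 and 0.94 ± 0.26; NCU05173 and NCU05176 lost the call in 5 alternatives each, with adjusted p up to 0.195 and 0.152. Of the members with a symbol, per-1 was higher by 1.02 ± 0.26 (edgeR adjusted p = 0.0208) and stk-53 by 0.72 ± 0.17 (edgeR adjusted p = 0.0182). Both lost the call without the first library of set-2 H3G34R, without N6266 and in a fit of the 4 libraries labelled set-2, with edgeR adjusted p up to 0.114 for per-1 and 0.0949 for stk-53.

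Members lower in set-2 H3G34R were led by NCU05477, with 15.1 and 14.3 in set-2 H3G34R against 40.9 and 44.1 in set-2 ash1(Y888F) on TMM-scaled CPM. Its log2 difference was -1.53 ± 0.11 (SE, n = 2 libraries each, edgeR adjusted p = 5.21e-04). NCU07149, near a chromosome end, had 1.01 and 0.673 against 7.05 and 6.98, a log2 difference of -3.03 ± 0.26 (edgeR adjusted p = 8.17e-04). NCU08853, next to parp, had 0.303 and 0.112 against 2.98 and 5.64, a log2 difference of -4.25 ± 0.55 (edgeR adjusted p = 0.00262). In these 3 genes the libraries of the 2 genotypes did not overlap. NCU06590 was lower by a log2 of -1.93 ± 0.27 (adjusted p = 0.00335) and NCU04269 by -1.06 ± 0.15 (adjusted p = 0.00352), both by edgeR. In the run of NCU08853, NCU16913 was lower as well, by -2.21 ± 0.42 (edgeR adjusted p = 0.00843). That call rests on 3 and 2 reads in set-2 H3G34R and 10 and 8 in set-2 ash1(Y888F). The filter on low counts also took its 348 and 342 reads in H3G34R. In the same run parp differed by -0.14 ± 0.15 and NCU08851 by -0.30 ± 0.43, and neither passed. NCU06591, next to NCU06590, was lower by -0.87 ± 0.21 (edgeR adjusted p = 0.0177). NCU06591 lost the call in a fit of the 4 libraries labelled set-2. The mitochondrial dehydrogenase gene ndi-1 was lower by -2.17 ± 0.34 (edgeR adjusted p = 0.00456). For the RNA interference genes no difference was detectable at this depth. The values were 1.00 ± 0.41 for sad-2 (edgeR adjusted p = 0.164) and 0.27 ± 0.57 for sad-3 (edgeR adjusted p = 0.743), and ccg-4 stood at -0.43 ± 0.29.

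**Figure D4:**
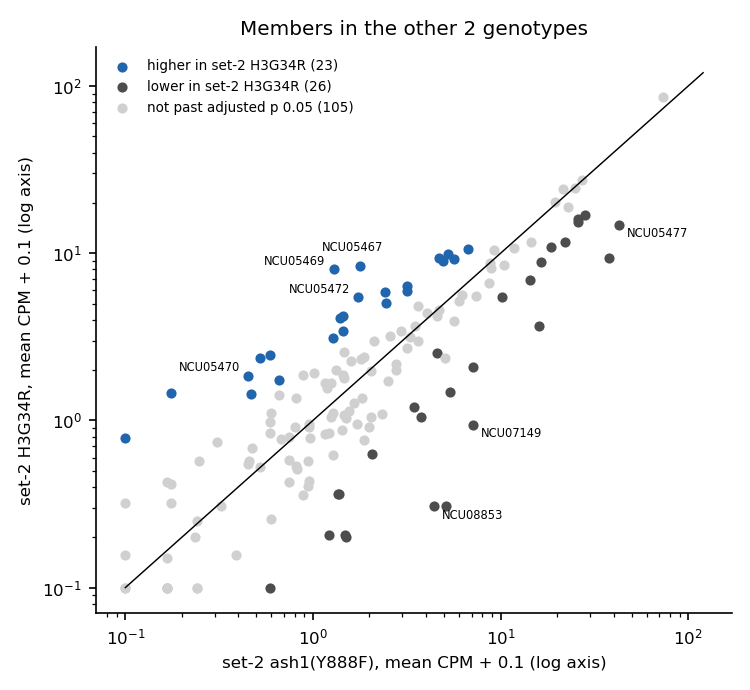
Mean TMM-scaled CPM plus 0.1 of the 154 members in set-2 H3G34R (vertical, log axis) and set-2 ash1(Y888F) (horizontal, log axis), n = 2 libraries each; the line marks equality. Blue points are the 23 members higher and dark points the 26 lower in set-2 H3G34R by edgeR; the 105 grey points did not pass.

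Against wild type, the authors' deposited table for H3G34R listed 136 of the 154 members as higher at an adjusted p of 0.05, where 33.6% of all genes tested were higher. It listed 2 members as lower, against 30.9% of all genes, and left 16 not past the threshold. The H3G34R libraries in that table are those that chose the members, so these counts are a description. For ccg-4 the authors' deposited table gave a log2 fold change of 6.46 ± 0.33 (SE, DESeq2 adjusted p = 6.89e-84), and for per-1 6.67 ± 0.44 (DESeq2 adjusted p = 5.33e-51). For rid-1 the authors' deposited table gave 2.66 ± 0.30, for sad-2 3.95 ± 1.30, for sad-3 2.66 ± 0.36 and for parp 5.43 ± 0.20, all higher at the threshold. The smallest among members with a symbol was pho-2, at 1.56 ± 0.24 in the authors' deposited table. The kinase genes stk-35 and stk-56 missed the threshold in the authors' deposited table, at 2.87 ± 1.38 (DESeq2 adjusted p = 0.0587) and 2.78 ± 1.38 (DESeq2 adjusted p = 0.0672).

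The wild-type level behind each table was derived as 2 times the deposited mean less the mutant level, on the authors' normalised counts for both strands together. By this measure 139 of 153 members were at least 4-fold above wild type in H3G34R, against 11.6% of all genes with a value, and 125 members were at least 8-fold above. One member, NCU03535, had no reads when strands were counted together and has no value. The count for both strands did not follow the sense reads in every other member. NCU01042 and NCU01012 had mean sense levels of 27.9 and 24.5 CPM in H3G34R but 86.5 and 257 normalised counts for both strands. In 42 members the derived wild type was under the limit of the derivation. Of the 15 members that missed the authors' threshold and had counts, 14 were at least 4-fold above the derived wild type. The mutant level in these ratios comes from the H3G34R libraries that chose the members. The counts above wild type are therefore a description too, and do not stand in for the authors' test. For stk-35 the derived levels were 1430 in H3G34R and 14.5 in wild type. In 34 members the log2 ratio of derived levels exceeded the fold change of the authors' deposited table by more than 1, and the median SE of these in the authors' deposited table was 1.35, against 0.42 for the other members.

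Genes of conidia and aerial hyphae differed in the same comparison. Of 12 such genes measured, 1 was higher and 9 lower in H3G34R in the authors' deposited table, with al-1 and al-2, carotenoid genes, at -5.50 and -6.05. Their summed level was 20278 normalised counts in H3G34R, against 130455 in the derived wild type. Over the sense counts it was 1710 and 2175 CPM in H3G34R, 1629 and 2626 CPM in set-2 H3G34R, and 664 and 1214 CPM in set-2 ash1(Y888F), and none of the 12 genes was at 0 in any library. The part of these genes' tissue in the members' values against wild type was not tested. In bulk RNA, fewer cells of a type and less RNA per cell cannot be told apart.

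A few members were high in this wild type too. NCU06170 was at 1964 in H3G34R and 3229 in the derived wild type, with a log2 fold change of -0.72 ± 0.13 in the authors' deposited table. NCU10031, the gene next to a chromosome end, was at 232 in H3G34R and 783 in the derived wild type, with -1.75 ± 0.20 in the authors' deposited table. NCU04269 was at 725 and 577, with 0.33 ± 0.18 in the authors' deposited table, which did not pass. None of these 3 genes was listed as higher in H3G34R than this wild type, the one behind the H3G34R table. NCU07082 was at 5024 in H3G34R and 2373 in the derived wild type, and NCU08851 at 340.1 and 218.

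**Figure D5:**
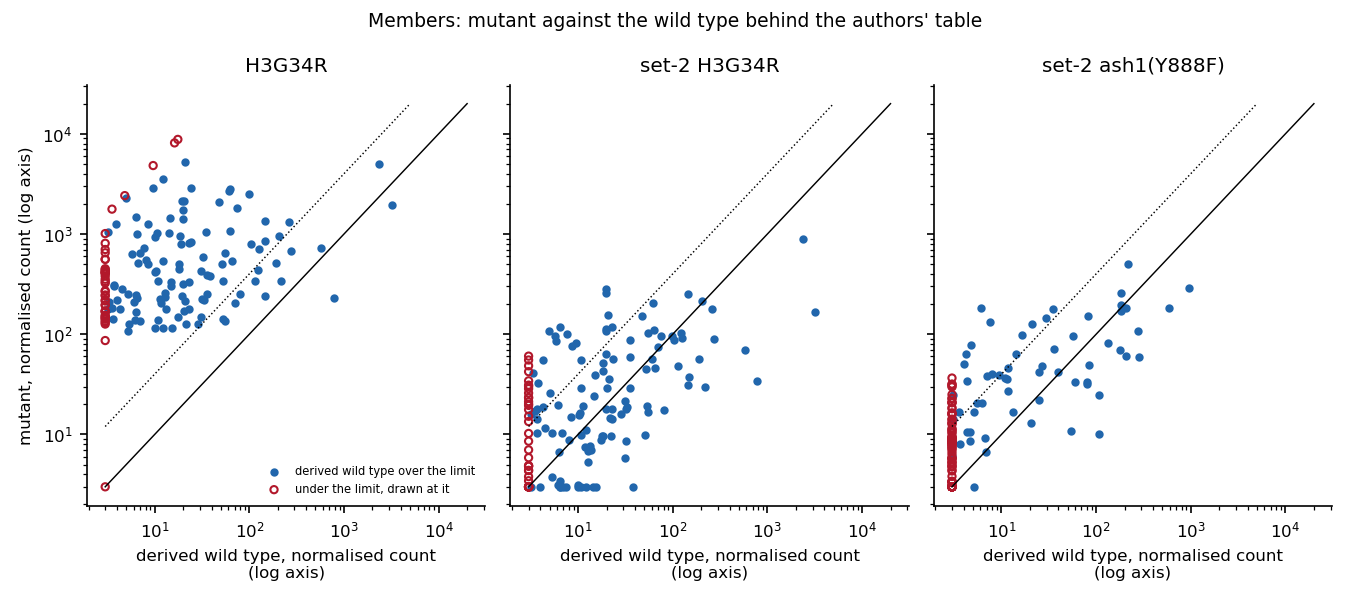
Normalised count of members in the mutant (vertical, log axis) and in the wild type derived from the authors' table (horizontal, log axis), in 3 panels for H3G34R, set-2 H3G34R and set-2 ash1(Y888F); the solid line marks equality and the dotted line 4-fold. Points lie above the dotted line for 139 of 153 members with H3G34R, with open circles drawn at the limit of the derivation and values under 3 drawn at 3.

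Fewer members were listed as higher for the set-2 genotypes, on which the rule set a ceiling. In the authors' deposited table for set-2 H3G34R, 39 members (25.3%) were higher, near the 24.9% of all genes tested, and 17 (11.04%) were lower, against 26.4% of all genes, with 98 not past the threshold. In the authors' deposited table for set-2 ash1(Y888F), 33 of the 129 members with an adjusted p (25.6%) were higher, against 10.8% of all genes, 11 (8.53%) were lower, against 6.42%, and 85 did not pass. The median log2 fold change of the members was 0.46 in the authors' deposited table for set-2 H3G34R and 0.93 in that for set-2 ash1(Y888F), where all genes stood at -0.02 and -0.0050. Members well above wild type with the label set-2 H3G34R included per-1, at 3.76 ± 0.59, and ccg-4, at 2.19 ± 0.58 in the authors' deposited table. These 2 are named for their symbols, and members without a symbol also stood well above. By derived levels NCU00932 was 18.7-fold above wild type with that label, and NCU00425 at least 14.1-fold. With the label set-2 ash1(Y888F), per-1 was at 2.57 ± 0.64 and ccg-4 at 2.68 ± 0.59 in the authors' deposited table. Both genes were thus listed as higher than wild type in all 3 of the authors' deposited tables.

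The wild types behind the tables were not all the same. Derived wild-type levels of the H3G34R and set-2 H3G34R tables differed by a median of 3.58e-04 on the log2 scale over 6049 genes, so these tables share their wild-type values. The wild type of the set-2 ash1(Y888F) table differed from it by a median of 0.69 after centring, and by more than 2-fold in 34.4% of those genes. NCU06170 was at 592 and NCU10031 at 108 in that second wild type. Values against wild type are therefore compared within a table only, and how the wild types differ was not tested.

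Genes of the pathways named by members were called in both directions in the authors' deposited table for H3G34R, in which 33.6% of all genes were higher and 30.9% lower. Of the 6 meiotic silencing genes measured, a list drawn up with these results known, 4 were higher, 1 lower and 1 not past the threshold in the authors' deposited table for H3G34R. The higher ones were sms-2, sad-1, sad-2 and sad-3, with a log2 fold change of 4.64 in the authors' deposited table for sad-1, which encodes the pathway's RNA polymerase. NCU02178 (sad-1) was nevertheless no member, since it had 18.2 and 18.5 CPM in H3G34R, 15.4 and 19.4 CPM with the label set-2 H3G34R, and 3.92 and 7.18 CPM with the label set-2 ash1(Y888F). NCU08270 (dcl-1), a Dicer, was lower, at -2.29 in the authors' deposited table. Of 10 genes of sexual tissue and mating, 3 were higher and 4 lower in the authors' deposited table. The higher ones were ccg-4, per-1 and mfa-1, the other pheromone precursor gene, the last at 1.29. The authors' deposited table had asd-1 and asd-3, both named for ascus development, lower at -6.02 and -4.05. The median log2 fold change over the 10 genes in the authors' deposited table was -0.39, where all genes stood at 0.01.

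Of 7 phosphorus genes, 3 were higher and 4 lower in the authors' deposited table for H3G34R. The higher ones were pho-2 and the phosphate permease genes pho-4 and pho-5, which met the thresholds of the rule but were left out by name. The regulators nuc-1, nuc-2 and preg were lower in the authors' deposited table, at -1.16, -0.998 and -0.50, as was pho-3, at -5.46. Of 53 stk kinase genes 16 were higher and 19 lower in the authors' deposited table, near the 33.6% and 30.9% of all genes, and 5 were members. Among 79 glycoside hydrolase genes, 21 were higher and 33 lower there, and gh18-1 was the 1 member.

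Other lists held no member, and their counts are read against the same 33.6% higher and 30.9% lower of all genes. In the authors' deposited table for H3G34R, 8 of 9 chromatin genes for lysine 36, lysine 27 and heterochromatin marks were higher and none lower, by 0.79 to 1.56, while dim-7 stood at 0.06. The authors' deposited table had 4 of 8 genes of nitrogen supply higher and 3 lower, and 3 of 5 of sulphur supply higher and 2 lower. Polyketide synthase genes numbered 5 with a value in the authors' deposited table, with 0 higher and 3 lower, and per-1 is not among them by symbol. The het genes het-c and het-6 were lower in the authors' deposited table, and of 8 genes of growing hyphae 4 were higher and 1 lower.

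Antisense reads were 1.04% and 1.19% of the members' sense and antisense reads in H3G34R, against 3.08% and 3.15% over all genes. In set-2 H3G34R they were 14.5% and 13.6%, against 3.49% and 3.46%, and in set-2 ash1(Y888F) 10.3% and 9.83%, against 3.68% and 3.78%. The rule chose the sense counts that enter these shares. Summed antisense CPM of the members was 127 and 146 in H3G34R, 114 and 102 in set-2 H3G34R, and 73.9 and 74.2 in set-2 ash1(Y888F). Both H3G34R sums were above those of the other genotypes, and the set-2 genotypes did not overlap. Of the 58 members with at least 20 antisense reads, 27 (46.6%) had both H3G34R libraries above all others, against 11.1% of 6055 such genes. The 4 other libraries were above both in 6 (10.3%), against 24.6%. These values are a description, since the contrast with H3G34R chose the members.

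Between the set-2 genotypes antisense counts could be tested with edgeR for 36 members. Higher in set-2 H3G34R were 5 members, where 9.23% of all genes were higher, and lower were 3, where 28.2% of all genes were lower. The 5 higher members were NCU06475, NCU05201, NCU09605, NCU03535 and NCU16930. NCU06475 had 1.92 and 1.68 in set-2 H3G34R and 0.271 and 0.149 in set-2 ash1(Y888F) on TMM-scaled CPM, a log2 difference of 3.01 ± 0.71 (edgeR adjusted p = 0.00218). The 3 lower members were NCU09604, NCU03534 and NCU06170, which rested on low counts, 0 to 10 antisense reads per library in the set-2 genotypes. Higher members also rested on few reads: NCU06475, NCU05201, NCU09605 and NCU16930 had 0 to 5 per library in set-2 ash1(Y888F). NCU03535 had 108 and 92 there, but no reads with both strands counted together. Without the first library of set-2 H3G34R 1 member was higher and 1 lower, and without strain N6266 3 were higher and 1 lower. Without N6267, or without the second library of set-2 H3G34R, 0 were lower. These fits too leave 1 library in a genotype.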

How the data were processed

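Poly-A RNA was sequenced in 6 stranded libraries. Read counts per gene came from the authors as 1 deposited STAR table per library (STAR 2.6.0 in the submitters' processing notes). For these counts, build and annotation were not given in the sources used here. Column 4 was used as sense counts, column 3 as antisense counts and column 2 as both strands together, and the 4 lines of unassigned reads stayed out. The authors also deposited 1 comparison with wild type per genotype, and the submitters' processing notes name DESeq2 1.18.1. Identified from their values, the deposited columns are a mean normalised signal (counts over size factors), the log2 fold change with its SE, a test score, the p-value and the adjusted p-value. The derived wild type, 2 times the deposited mean less the mutant mean, takes as many wild-type as mutant libraries, with size factors fitted to genes of mean count at least 100. Levels under the error of that fit, or under 3 counts, are limits.

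For the test between the set-2 genotypes, edgeR 4.0.16 was run on sense counts of all 6 libraries in 1 fit (TMM, filterByExpr, glmQLFit and glmQLFTest; two-sided; Benjamini-Hochberg adjustment). Antisense counts took the effective library sizes of the sense counts. The SE of an edgeR difference was calculated as the absolute log2 difference over the square root of the test's F statistic. At low counts this SE can be small for its p-value, and calls rest on the adjusted p. DESeq2 1.42.0 in R 4.3.3 was an alternative. The edgeR script was tested on simulated data. The members and the gene lists were chosen with earlier results of these data known. Genes are named by 7 criteria: runs of at least 3 consecutive numbers and the genes interrupting them, the 15 highest ratios, the 10 highest H3G34R levels, all symbols, 5 genes on each side of the threshold, the 5 smallest adjusted p per direction, and up to 5 members not higher in the authors' H3G34R table; others were chosen after their values were seen. Symbols and gene order came from a RefSeq table of assembly NC12, in which 9729 of 9730 genes matched. Lists that needed product names, and distances in bases, were not run, because that table has no product names and the build is not named. Figures were drawn with matplotlib 3.10.9 in Python 3.11.15.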

Additional observations from a re-analysis of the deposited data

Results flagged for a closer look

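In 2 members, the 2 set-2 genotypes stood on opposite sides of wild type in the authors' deposited tables, each past an adjusted p of 0.05 by DESeq2. NCU05477 had a log2 fold change of 1.62 in set-2 H3G34R and -1.64 in set-2 ash1(Y888F). Its derived wild-type levels were 47.8 behind the set-2 H3G34R table and 958 behind the other. NCU07082 had -1.41 in set-2 H3G34R and 1.13 in set-2 ash1(Y888F), with derived wild-type levels of 2367 and 219. The difference between these effects was not tested, and the wild types behind the tables differ. Between the mutants themselves, NCU05477 was lower in set-2 H3G34R by edgeR, and NCU07082 did not pass, at a log2 difference of 0.23.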

How the results depend on the processing

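With a fold threshold of 2 the rule found 435 genes, with 8 it found 84, and with a constant of 5 CPM 87, where the rule as given found 154; leaving out 1 library gave 160 to 186. Runs by number held 28 to 36 members when 1 library was left out. Among the outermost 12 genes of a chromosome end lay 7 members, and among the outermost 50, 25; this measure was chosen after seeing the data. Of the members tested between set-2 H3G34R and set-2 ash1(Y888F), 11 were higher in a fit of those 4 libraries alone, and leaving out 1 library gave 8 to 22 higher and 16 to 26 lower. For antisense, the column's own sum as library size gave 8 higher and 0 lower, no filter on low counts gave 0 lower, and leaving out 1 library gave 1 to 6 higher and 0 to 4 lower. In the authors' deposited tables, a minimum of 2-fold left 1 member lower in H3G34R, and an adjusted p of 0.01 left 7 lower in set-2 ash1(Y888F). Of the 49 members called in that test, 29 lost the call under at least 1 alternative, 23 of them without the first library of set-2 H3G34R, 22 without its second and 14 without N6266, in fits that leave 1 library in a genotype. NCU16930 changed direction with both strands counted together, at a log2 difference of 0.11, and its antisense was higher in set-2 H3G34R; no other called member changed direction. No paired analysis was possible because the labels give no replicate numbers shared between genotypes. Members outside H3G34R often rested on under 10 reads, which limits the test between the set-2 genotypes.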
